A study of Mus musculus with 6 samples.

Results

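The clustered protocadherins are cell surface adhesion proteins whose genes lie in 3 adjacent arrays, alpha (Pcdha), beta (Pcdhb) and gamma (Pcdhg), on mouse chromosome 18. The members were the protein-coding genes of that chromosome whose GENCODE symbol starts with Pcdha, Pcdhb or Pcdhg, 57 of the 20722 autosomal protein-coding genes. The alpha cluster held 14 genes, the beta cluster 22 and the gamma cluster 21, and 5 of the alpha and gamma genes were C-type members (Pcdhac1, Pcdhac2, Pcdhgc3, Pcdhgc4 and Pcdhgc5), which are described apart. For each gene, cytosines were taken from 1000 bp upstream of the 5′ end of the first exon to the end of that exon, which is the variable exon of the gene and is called its region here. A region was tested where at least 3 cytosines had 6 or more reads in all 6 libraries. This held for 39 members, namely 6 alpha, 10 beta and 18 gamma genes and all 5 C-type members, and for 11033 autosomal genes.

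Each variable exon of the alpha and gamma clusters has a promoter of its own, encodes the extracellular cadherin repeats and the membrane span, and is spliced to constant exons shared by the whole cluster, whereas a beta gene is a single exon. A neuron expresses only some of these genes, largely by random promoter choice, and the resulting set of surface proteins lets its branches recognise each other. The C-type genes are expressed more uniformly. Promoter choice is known to depend on the boundary factor Ctcf, whose binding is sensitive to DNA methylation, and on methylation laid down by Dnmt3b, and Uhrf1 brings the maintenance methyltransferase Dnmt1 to newly replicated DNA.

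Methylation was measured by reduced representation bisulfite sequencing after an oxidation step, so that 5-hydroxymethylcytosine was read as unmethylated and the level is that of 5-methylcytosine. The tissue was whole cortex of C57BL/6 embryos at embryonic day 16. The 3 control libraries were of heterozygous cortex (Uhrf1 +/-). The 3 cKO libraries were of cortex that lacked both copies (Uhrf1 -/-) in the cells reached by Emx1-Cre. This Cre removes exon 4 of Uhrf1 in the dorsal telencephalon. Both groups carried Emx1-Cre, and cortical cells that came from the ventral telencephalon keep the gene. No label ties a library to a litter. A p-value sets the group difference against the spread between these libraries, and that spread may be technical. Where values are listed per library, those of the 3 controls and those of the 3 cKO libraries are given in the order of replicates 1, 2 and 3.

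The libraries held 18238737 to 31019082 reads over listed cytosines, and 636736 autosomal cytosines were covered in all of them. Their mean level was 39.1 and 38.8% in control replicates 2 and 3, 15.7 to 19.4% in the cKO libraries and 15.5% in the library labelled control replicate 1. That library was thus as low as the cKO libraries, and its level goes against its label. No value used here checks its genotype, so the label is in doubt, and every mean, SD and q over 3 controls depends on it. It is called control replicate 1 after its label. The tests used all 6 libraries under their labels, and results are also given without it. Leaving it out was planned with every other omission, but singling out that omission rests on its methylation, which is the outcome measured.

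A total of 536 cytosines lay in member regions, 175 of them in C-type members, 243 in gamma, 72 in beta and 46 in alpha genes. Only 7 lay upstream of a variable exon, in Pcdhac1, Pcdhgb6 and Pcdhgc3, and all others within one. The data therefore describe the exons and hardly the promoters before them. The regions of the other genes also include the 1000 bp upstream, and how many of their cytosines lie there is not given here. Shares over all regions may therefore rest on more promoter sequence than the counts of members do. MspI, the enzyme of the assay, cuts at CCGG, a palindrome that reads the same on both strands. All 57 member regions held this motif at least 2 times, against 70.0% of all 20722 regions, but 28 of the 57 stretches of 1000 bp upstream held none. Member regions were 3346 to 9695 bp long, and these shares were not adjusted for the length of a region. The whole locus spans GRCm38 chromosome 18, 36930184 to 37841873.

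Taken over all covered positions, the clusters differed in level, in the order beta, alpha, gamma and C-type in all 6 libraries. These means weight each cytosine equally and are descriptions with no test, because the members were chosen with results of these data known. The classes were covered at different exon positions, and the order did not hold at each. From 500 to 1000 bp alpha was below gamma in every library. The means there were 38.0 against 51.5% in control replicates 2 and 3 and 13.0 against 27.7% in the cKO libraries. In the first 500 bp beta was not above alpha in these means (48.5 against 49.9%, and 19.7 against 20.9%). At other positions covered in both, alpha exceeded gamma, and beta exceeded alpha except in the cKO libraries from 1500 to 2000 bp. The beta mean was 30.1, 74.5 and 70.4% in the controls and 40.4, 39.7 and 27.8% in the cKO libraries. The alpha mean was 26.7, 57.4 and 53.9% in the controls and 30.4, 26.1 and 22.0% in the cKO libraries. In both clusters control replicates 2 and 3 lay above every cKO library, and control replicate 1 lay within the cKO range.

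The gamma mean was 22.8, 43.7 and 37.4% in the controls and 25.2, 23.2 and 21.2% in the cKO libraries, with control replicate 1 again inside the cKO range. C-type members had a mean of 3.25, 9.76 and 7.0% in the controls and 3.32, 5.18 and 4.85% in the cKO libraries, where control replicate 1 was the lowest of the 6. Over all 3 controls the cKO mean differed by -19.8 points for alpha, -22.3 for beta, -11.4 for gamma and -2.22 for C-type members, and the SD of the 3 controls was 16.8, 24.6, 10.7 and 3.27 points. Within libraries the beta mean exceeded the alpha mean by 3.36 to 17.1 points and the alpha mean exceeded the gamma mean by 0.751 to 16.6 points. The first order did not hold in every library at a coverage of 10 reads, where the lowest difference was -4.16 points. At 20 reads the lowest difference of beta and alpha was more negative, and its mean over libraries was small (values in the section on processing). With equal weight to each gene the lowest difference of alpha and gamma was -0.154 points. The C-type mean was below the gamma mean by at least 16.4 points in each library, and the SD of this gap was 7.52 points among the controls and 2.81 among the cKO libraries.

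**Figure D1:**
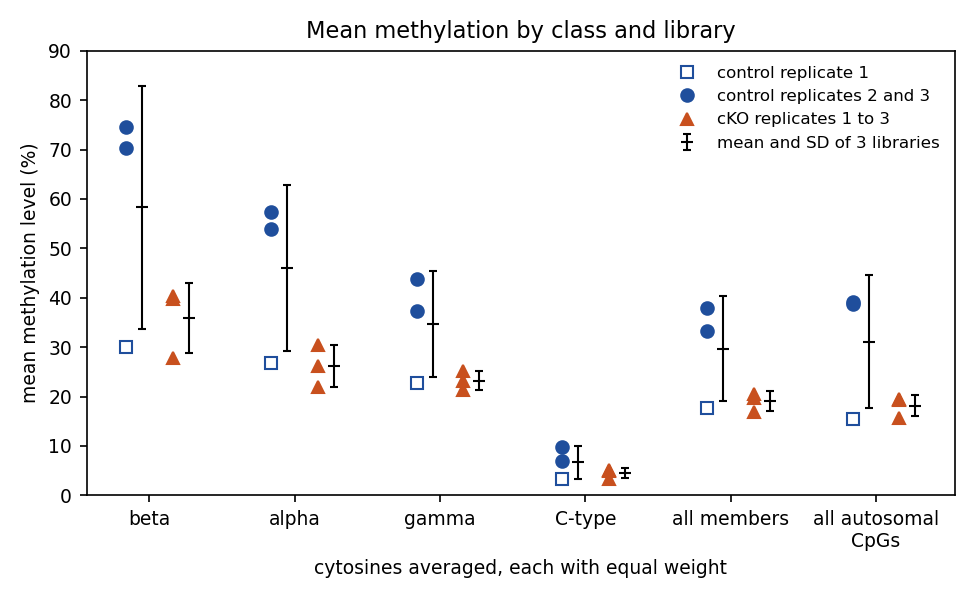
Mean methylation level in percent of beta, alpha, gamma and C-type member cytosines, of all member cytosines and of all autosomal CpG cytosines, with 1 point per library and the mean and SD of 3 libraries per group in black. Control replicates 2 and 3 lie above the cKO libraries in each class, from 70.4% and 74.5% for beta down to 7.0% and 9.76% for C-type members, and control replicate 1 lies among or below the cKO libraries.

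Set against the mean of all autosomal cytosines in the same library, the clusters kept most of their relative level. For alpha this ratio averaged 1.43 ± 0.0556 (SD, n = 2) over control replicates 2 and 3, and the cKO libraries averaged 1.44 ± 0.112 (SD, n = 3). Beta stood at 1.86 ± 0.0655 (SD, n = 2) and 1.97 ± 0.175 (SD, n = 3). The C-type ratio was 0.215 ± 0.0492 (SD, n = 2) and 0.25 ± 0.0708 (SD, n = 3). For alpha and C-type members the groups differed by less than the SD of either, and for beta by 0.111, more than the SD of these 2 controls and less than that of the cKO libraries. Control replicate 1 had ratios of 1.72 for alpha, 1.94 for beta and 0.21 for C-type members, and over all 3 controls the alpha ratio averaged 1.53 ± 0.172 (SD, n = 3), above that of the cKO libraries. For gamma, control replicates 2 and 3 had ratios of 1.12 and 0.963, against 1.30, 1.21 and 1.35 for the cKO libraries, so that these groups did not overlap, but control replicate 1 had the highest ratio, at 1.47.

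Regions of single members are described next, in the order of the clusters. A region was called where the quasi-binomial F test gave an adjusted p (q, Benjamini-Hochberg over all 11033 regions) under 0.01 and the group means were 25 points or more apart. With 6 libraries this called 0 of 39 members lower and 0 higher, and 0.0% of all regions in either direction. The lowest q of a member was 0.971. An unadjusted p under 0.05 was seen in 8 of 39 members, against 2.66% of all regions. Among members of at least 25% in control replicates 2 and 3 it was 8 of 34 (23.5%), against 29.7% of such regions. Without control replicate 1, 8 of 39 members (20.5%) were called lower, against 4.25% of all regions, and 0 higher, against 0.0%.

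Only a region of at least 25% in control replicates 2 and 3 could be 25 points lower in the cKO libraries. This level was found in 34 of the 39 members but in only 855 of all 11033 regions, and of these 54.9% were called against 8 of 34 members. Control levels of 25 to 50% held 19 of the 34. In that range 1 of 19 members was called, against 9.24% of all regions, in the range from 50 to 75% it was 3 of 8, against 63.0%, and from 75 to 100% it was 4 of 7, against 77.6%. A difference of that size without control replicate 1 was seen in 13 of 39 members, against 5.52% of all regions, and in 13 of the 34 members of at least 25% (38.2%), against 71.2% of such regions. Every cKO library lay below every control in 7 members with 6 libraries, against 2.2% of all regions, and above every control in 0, against 12.8%. Without control replicate 1 they lay below both controls in 33 members, against 13.1%, and above both in 0, against 18.1%. Among regions of at least 25% in control replicates 2 and 3, every cKO library lay below every control in 7 of 34 members with 6 libraries, against 13.6%, and in 31 without control replicate 1, against 92.9%.

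Control replicate 1 lay below both other controls in 37 of the 39 tested members, against 38.8% of all regions, and in 32 of the 34 members of at least 25%, against 97.8% of such regions. Among the 39 it was below every cKO library in 17 members, against 39.3% of all regions, within their range in 15, against 52.9%, and above all of them in 7, against 7.85%. For the 34 members of at least 25% these counts were 13, 14 and 7, against 40.1, 46 and 13.9% of such regions. Over the 39 members control replicate 1 and the cKO mean had a Pearson r of 0.79 and a Spearman rho of 0.81. Control replicate 1 and the mean of control replicates 2 and 3 had 0.76 and 0.74. That mean and the cKO mean had 0.84 and 0.86, and control replicates 2 and 3 had 0.95 and 0.92 with each other. These are descriptions over genes that share libraries.

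**Figure D2:**
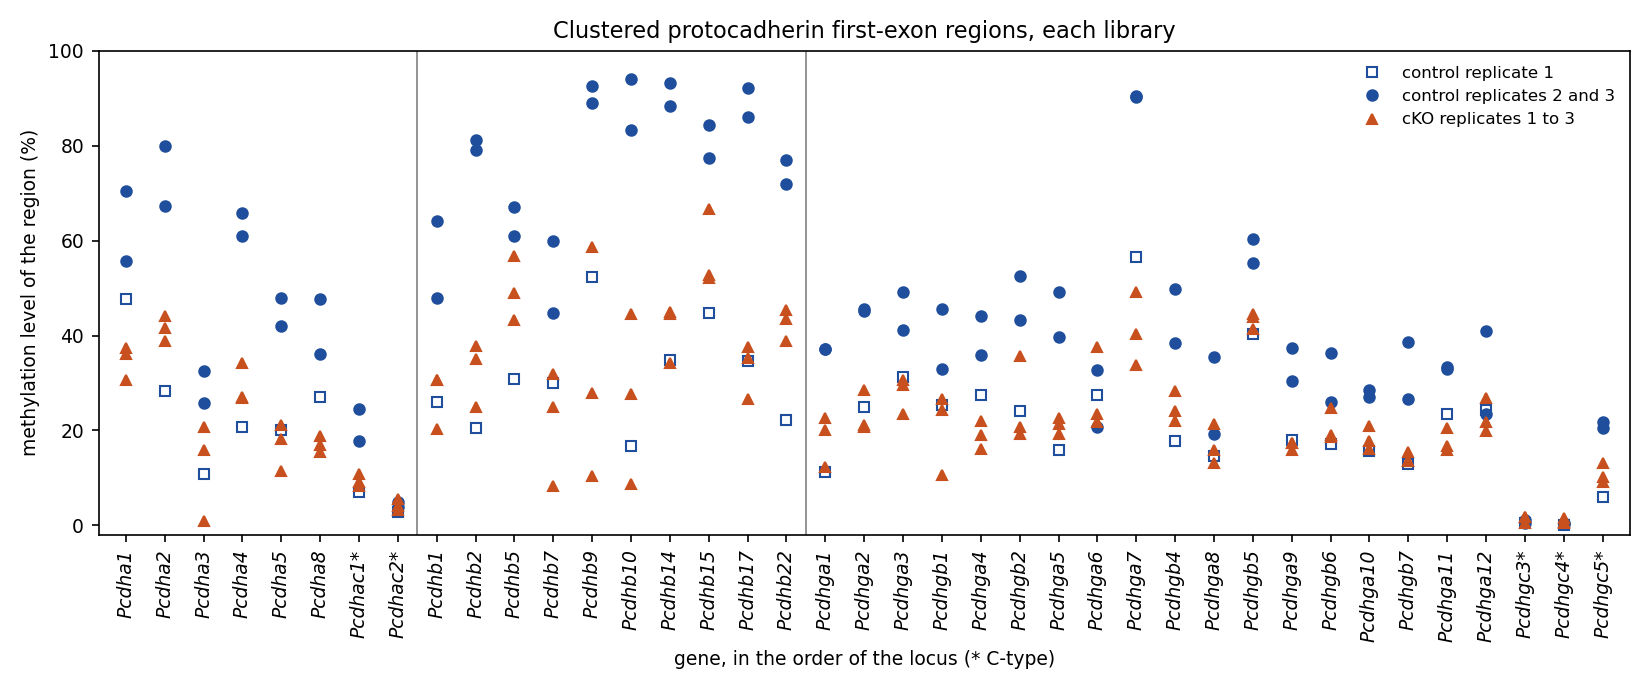
Methylation level in percent of the first-exon region of the 39 tested members in the order of the locus, with 1 symbol per library, vertical lines between the alpha, beta and gamma clusters and a star for C-type members. The beta genes and Pcdhga7 reach up to 94.1% in control replicates 2 and 3, and the other gamma genes lie between 19.2 and 60.3% in them. The open squares of control replicate 1 lie within the range of the cKO triangles in 15 members, below it in 17 and above it in 7.

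Alpha genes encode receptors with a conserved cytoplasmic part from the alpha constant exons. The level of the 6 tested alpha genes ranged from 29.2 to 73.6% in control replicates 2 and 3 and from 12.5 to 41.5% in the cKO libraries. Pcdha4, the alpha gene with most cytosines (17, variable exon at 36952648 to 36955150), was at 20.7, 65.8 and 61.0% in the controls and at 34.2, 26.7 and 27.0% in the cKO libraries. It was called without control replicate 1, with a difference of -34.1 points (q = 5.95e-05). Pcdha5 was called as well, at 20.2, 47.9 and 42.0% in the controls and 21.1, 18.2 and 11.4% in the cKO libraries, with a difference of -28.1 points (q = 0.00128). Control replicate 1 lay below the cKO libraries in Pcdha4 and within their range in Pcdha5.

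Pcdha1 was also called, and is named after its values were seen. Its controls were at 47.7, 70.5 and 55.6% and its cKO libraries at 37.3, 36.1 and 30.6%, so that all 3 controls, control replicate 1 included, lay above all cKO libraries. Without control replicate 1 the difference was -28.4 points (q = 0.00568), and with it -23.3 points (unadjusted p = 0.0134, q = 0.971). Pcdha8 was the other alpha gene with this order, with 27.1, 36.2 and 47.6% in the controls and 15.6, 16.9 and 18.8% in the cKO libraries, on 45 to 94 reads. The highest alpha gene, Pcdha2, was at 28.4, 67.2 and 80% against 38.8, 44.1 and 41.7%, and the lowest, Pcdha3, at 10.8, 32.5 and 25.8% against 16, 20.7 and 0.952%. Neither was called, and both had 55 to 119 reads in each library.

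Beta genes lack constant exons and so encode receptors with short cytoplasmic parts. They included the most methylated members. Without control replicate 1, 8 of 10 differed by 25 points or more, against 71.2% of all regions of at least 25%. Of these 8, 4 were called (40% of the tested beta genes), against 54.9% of such regions. Pcdhb17 (variable exon at 37484795 to 37489454) was at 34.7, 92.1 and 86.0% in the controls and at 37.6, 35.3 and 26.7% in the cKO libraries, a difference of -55.9 points without control replicate 1 (q = 4.11e-05). Pcdhb2 was the beta gene with most reads, 350 to 529 in each library, and stood at 20.6, 79.2 and 81.2% in the controls and 37.8, 35.0 and 24.8% in the cKO libraries (q = 1.38e-05, the lowest of any member). In these genes the level without control replicate 1 went from more than 75% to less than 40%.

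Pcdhb14 had the highest mean of control replicates 2 and 3, 90.8%, on only 3 cytosines and 43 to 91 reads. It was at 34.9, 93.2 and 88.5% in the controls and 45.1, 44.4 and 34.2% in the cKO libraries (q = 0.00402 without control replicate 1). Pcdhb1, which lies apart at the start of the beta cluster, had one of the lowest levels, with 26.0, 64.1 and 48.0% in the controls and 30.5, 30.6 and 20.2% in the cKO libraries (q = 0.00517). The lowest was Pcdhb7 at 30, 60 and 44.8% and 25, 31.9 and 8.20%, which was not called on 28 to 69 reads. Control replicate 1 lay within the cKO range in 3 of the 4 called beta genes and below it in Pcdhb2.

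Several beta genes that were not called had few reads. Pcdhb10, named after its values were seen, had the largest difference of any member, -61.8 points, with 16.7, 83.3 and 94.1% in the controls and 27.8, 44.4 and 8.70% in the cKO libraries, but had 30 to 54 reads in each library and a q of 0.0165. At that depth the Wilson 95% interval of the lowest cKO library reached from 3.43 to 20.3% and that of control replicate 2 from 66.4 to 92.7%. Such intervals cover counting error only. Pcdhb9, at 52.4, 92.6 and 88.9% against 58.6, 27.9 and 10.3%, showed the widest spread between cKO libraries (SD 24.4 points). Pcdhb5, in contrast, had 162 to 663 reads and a small difference: it was at 30.9, 67.1 and 61.1% in the controls and 56.8, 49.0 and 43.2% in the cKO libraries, and 77.5% of its level in control replicates 2 and 3 was left in the cKO mean.

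Gamma genes share constant exons that give them a common cytoplasmic part, and fall into A and B subfamilies. They had 4 to 25 cytosines per gene, and all but 2 of the 18 lay between 26.8 and 47.9% in control replicates 2 and 3. The exceptions were Pcdhga7 and Pcdhgb5. Pcdhga7 (variable exon at 37714764 to 37717374) was at 56.5, 90.3 and 90.5% in the controls and at 40.2, 49.1 and 33.8% in the cKO libraries, with all controls above all cKO libraries. It was the 1 gamma gene called, with -49.4 points without control replicate 1 (q = 7.24e-05), and it had the lowest unadjusted p of any member with 6 libraries (0.00648, -38.0 points, q = 0.971).

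Pcdhgb5 was at 40.4, 60.3 and 55.2% in the controls and 41.3, 44.5 and 43.8% in the cKO libraries, and 74.7% of its level in control replicates 2 and 3 was left. The gamma genes with most reads were Pcdhga9 and Pcdhga10. Pcdhga9 had 18.0, 37.5 and 30.4% in the controls and 17.3, 17.4 and 15.9% in the cKO libraries, on 647 to 1084 reads. This was a difference of -17.1 points with a q of 0.000527 without control replicate 1, short of the 25 points. Pcdhga10 was at 15.7, 28.6 and 27.0% against 20.9, 16 and 17.8% (q = 0.0388). In total 8 of 18 gamma genes had a q under 0.01 without control replicate 1 at any size of difference, among 16 of 39 members, against 5.0% of all regions. Among members of at least 25% in control replicates 2 and 3 it was 15 of 34 (44.1%), against 60.8% of such regions.

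The smallest differences among members of at least 25% were those of Pcdhga6 and Pcdhga12. For Pcdhga6 the controls were at 27.5, 32.8 and 20.8% and the cKO libraries at 37.5, 23.4 and 21.7%, on 24 to 61 reads. The groups overlapped, and without control replicate 1 the difference was 0.74 points (q = 0.925). The 4 covered cytosines of Pcdhga6 lay in a single window of 100 bp. Each had a bisulfite-converted stretch of 50 bp over it that also occurs elsewhere in the locus, though not every stretch over it did. Pcdhga12 had 310 to 610 reads, with 24.4, 23.5 and 41.0% in the controls and 21.7, 19.8 and 26.8% in the cKO libraries, and its control replicates differed more from each other than the groups did. Pcdhga8, the gamma gene with the second lowest control mean, was similar in this respect, with 14.7, 35.5 and 19.2% against 21.3, 15.9 and 13.2%.

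The C-type members were separated into a pair with an intermediate level and 3 with a low one. Pcdhac1 (variable exon at 37090013 to 37092571, 35 cytosines) was at 7.03, 24.4 and 17.7% in the controls and at 8.34, 10.9 and 9.16% in the cKO libraries. Without control replicate 1 this was a difference of -11.6 points (q = 0.00130), not called because of its size. Pcdhgc5 stood at 5.99, 21.8 and 20.6% and at 9.17, 13.2 and 10.2%, a difference of -10.3 points (q = 0.0449). In both, control replicates 2 and 3 lay above every cKO library and control replicate 1 lay below every one.

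Pcdhac2, Pcdhgc3 and Pcdhgc4 had levels under 6% in every library. Pcdhac2 was at 2.75, 3.93 and 5.02% in the controls and 5.66, 4.05 and 3.28% in the cKO libraries, with 837 to 1901 reads. Pcdhgc3 was the member with most cytosines, 73, and had 0.476, 1.04 and 0.511% in the controls and 0.414, 1.85 and 1.86% in the cKO libraries. For Pcdhgc4 the controls were at 0.00, 0.395 and 0.526% and the cKO libraries at 0.465, 1.65 and 0.784%, where the 0 of 223 reads in control replicate 1 allows a level of up to 1.35%. The groups overlapped in all 3 genes, and no q without control replicate 1 was under 0.772. Most regions, which include the 1000 bp upstream of the first exon, lay at such levels. The median of all 11033 regions was 0.668% in control replicates 2 and 3 and 1.26% in the cKO libraries, so that the small positive differences of Pcdhgc3 and Pcdhgc4, 0.600 and 0.504 points, had the sign of the median difference over all regions, 0.398 points.

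**Figure D3:**
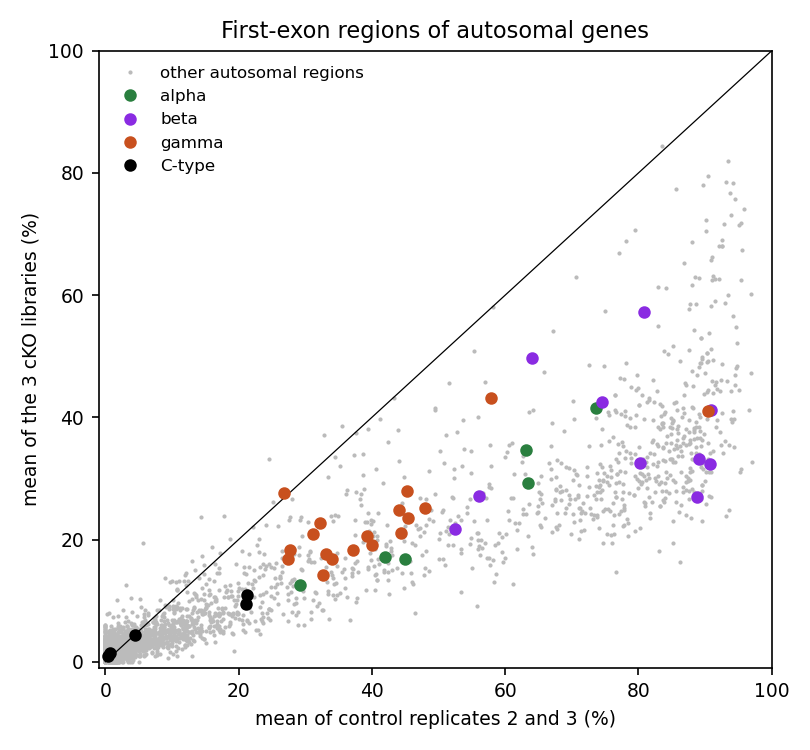
Mean level in percent of the 3 cKO libraries against that of control replicates 2 and 3 for 11033 autosomal first-exon regions (grey) and the 39 tested members (coloured by class), with the line of equal level. Of the members, 34 lie between 26.8 and 90.8% on the control axis, and the gamma point on the line is Pcdhga6.

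The share of the control level that was left in the cKO libraries varied with the gene. It ranged from 30.4% in Pcdhb10 to 103% in Pcdhga6 among the 34 members of at least 25%, with a median of 50.7%, against 42.5% for all 855 such regions. Members of 50 to 75% in control replicates 2 and 3 kept a median of 55.7% (8 genes), against 40.6% for all regions of that range. From 25 to 50% it was 52.3% (19 genes) against 46.4%, and from 75 to 100% it was 40.6% (7 genes) against 42.3%. No test of these medians was made.

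Position within the exon went with the level when the genes were pooled. In alpha, beta and gamma genes together, the mean of control replicates 2 and 3 was 29.3% in the first 500 bp of the exon, 55.0% from 500 to 1000 bp and 63.4% from 1000 to 1500 bp, and the cKO means were 15.8, 27.6 and 33.4%. Beyond that it stayed near this level, at 64.5% in controls and 37.4% in cKOs from 2000 bp on. C-type members were below 4% in the first 500 bp in both groups (3.70 and 2.74%), and reached 33.8 and 16.4% from 2000 bp on. Different genes contributed to different positions, so the comparison was repeated within genes.

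A total of 10 genes, 7 gamma and 3 C-type, had at least 3 cytosines both in the first 500 bp and beyond 1000 bp of the exon. The later part was higher in all 6 libraries in 8 of them, and in no gene was it lower in all. In Pcdhac1 it was 55.0% against 10.9% in control replicates 2 and 3 and 23.4% against 5.32% in the cKO libraries. In Pcdhga2, named after its values were seen, it was 87.6% against 19.2% and 41.7% against 9.11%. The exceptions were Pcdhga8, higher later in 4 libraries, and Pcdhga10, higher later in 5, and in control replicate 1 both were lower in the later part (11.8% against 16.1%, and 15.2% against 17.9%). Pcdhgc3 had the order in all libraries but at a level of 0.862% against 0.387% in control replicates 2 and 3. The alpha constant exons held 3 covered cytosines, at 19.0, 71.9 and 86.8% in the controls and 12.5, 33.9 and 13.3% in the cKO libraries, and those of the gamma cluster 3, at no more than 3.62% in any library. The remaining 87 covered cytosines of the locus had a mean of 28.4, 62.4 and 60.2% in the controls and 37.0, 34.4 and 31.8% in the cKO libraries.

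**Figure D4:**
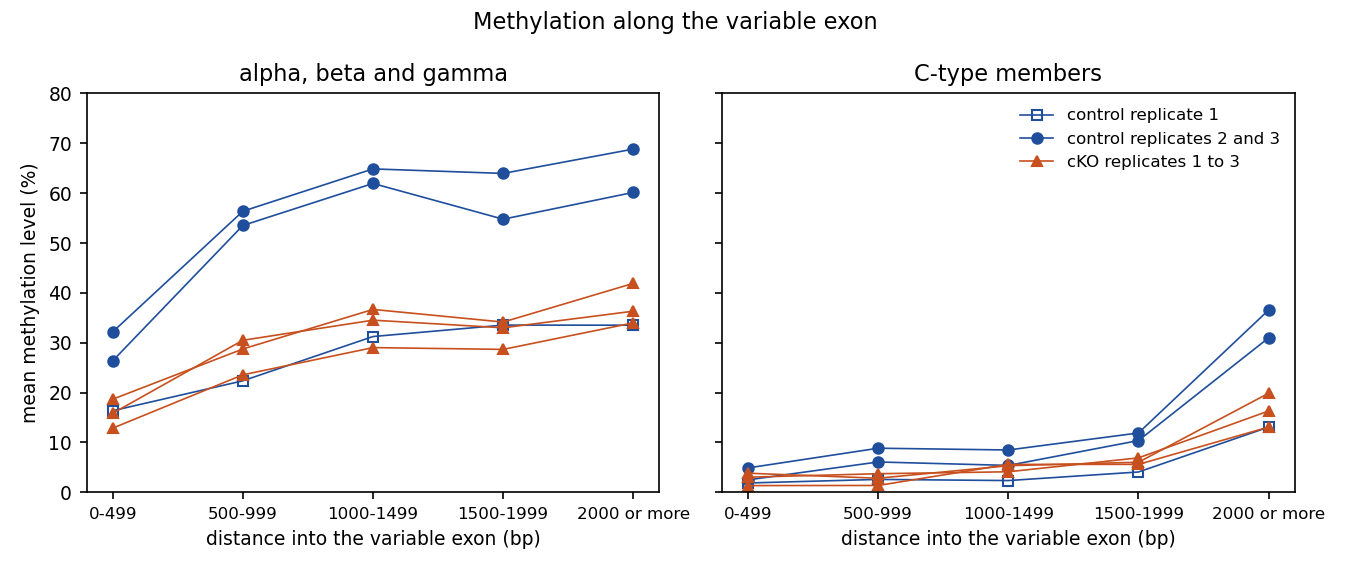
Mean methylation level in percent of member cytosines by distance in bp from the 5′ end of the variable exon, with 1 line per library, for alpha, beta and gamma genes (left) and C-type members (right). Within the exon, every library is lowest in the first 500 bp in alpha, beta and gamma genes pooled, at 12.9 to 32.2%. Alpha genes alone, not drawn apart, are higher in the first 500 bp than from 500 to 1000 bp in every library. C-type members stay under 12% up to 2000 bp.

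Single cytosines of the alpha and gamma genes were mostly neither low nor high in control replicates 2 and 3. A mean of 20 to 80% was seen in 78.3% of alpha, 63.8% of gamma and 45.8% of beta cytosines, but in 15.4% of C-type cytosines and 21.1% of all autosomal cytosines. More than 80% was reached by 51.4% of beta, 14.0% of gamma, 13.0% of alpha and 1.14% of C-type cytosines, against 28.3% of all autosomal ones. In the cKO libraries these shares of high cytosines were 4.17, 0.412, 0.00 and 0.571%, against 0.960%. A level between 20 and 80% can mean cells with and cells without methylation or copies methylated in part, which cannot be told apart in libraries of whole tissue.

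**Figure D5:**
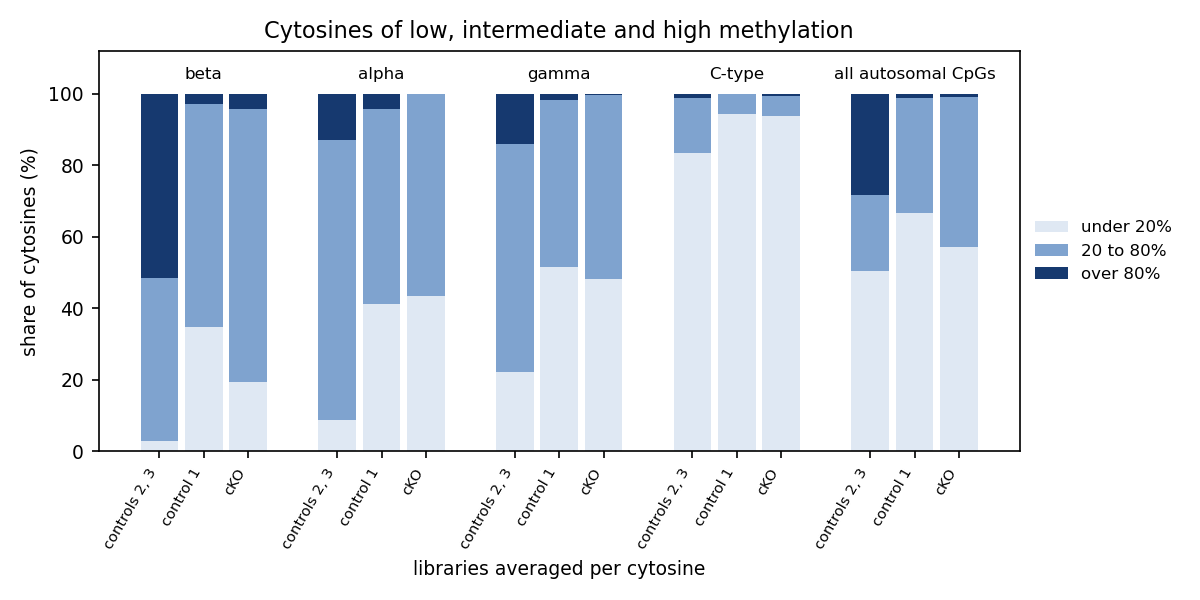
Share in percent of cytosines with a mean level under 20%, from 20 to 80% and over 80%, for each class of members and for all autosomal cytosines, in control replicates 2 and 3, control replicate 1 and the cKO libraries. The dark part for over 80% is 51.4% of beta cytosines in control replicates 2 and 3 and at most 4.35% in any member class in the other libraries.

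In windows of 100 bp, 0 of 201 member windows were called in either direction with 6 libraries, against 0.0% of 280595 windows, and 19 had an unadjusted p under 0.05, against 15.1%. Without control replicate 1, 57 member windows were called lower (28.4%), against 44.3% of all windows, and 0 higher, against 0.00285%. Of windows of at least 25% in control replicates 2 and 3, 57 of 134 member windows were called, against 67.8%. Among all 201 member windows, whatever their level, those called were 11 of 18 alpha, 20 of 34 beta, 20 of 95 gamma and 6 of 54 C-type windows. The C-type windows called were in Pcdhac1, 5 of them, and Pcdhac2, 1, at 1498 bp into the exon, where 61.5% in control replicates 2 and 3 stood against 25.9% in the cKO libraries and 29.3% in control replicate 1. This window, singled out after its values were seen, was a stretch of higher level in a gene with a low mean.

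Composition of the region went with the level across genes. Over the 39 tested members the GC content of the region and the mean of control replicates 2 and 3 had a Pearson r of -0.78 and a Spearman rho of -0.69, as a description over genes that share libraries. The classes differed in GC, with a median of 44.5% in tested beta, 47.7% in alpha, 48.2% in gamma and 53.0% in C-type members, and within the 18 gamma genes the values were -0.14 and 0.09. The part of GC content, of position in the exon and of class in the level was not tested. Of the 536 cytosines 86 lay in a converted stretch of 50 bp that also occurs elsewhere in the locus, and for none was this true of every stretch over it.

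Genes related to the members had mostly low levels. Of 32 non-clustered protocadherins and other cadherins 25 were tested, 9 of them at 25% or more in control replicates 2 and 3. None was called with 6 libraries, and 4 (16%, against 4.25% of all regions) were called lower without control replicate 1. Among those of at least 25% it was 4 of 9, against 54.9% of such regions. Cdhr5 was at 6.90, 74.8 and 77.9% in the controls and 21.8, 24.6 and 25.7% in the cKO libraries. Pcdh1 went with it, at 35.9, 90.3 and 88.2% and 27.3, 56.2 and 26.5%, and Pcdh12, a protocadherin of vessel walls, at 27.9, 64.6 and 60.8% and 27.4, 26.1 and 21.5%. The other was Fat1, a giant cadherin, at 90.9% in control replicates 2 and 3 and 65.7% in the cKO libraries. The 3 genes with most reads were Pcdh8 and Pcdh7, both under 2.1% in every library, and Fat4, at 11.2, 35.4 and 21.2% against 22.8, 15.8 and 16.9%.

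Of 30 genes for regulators of the clusters, cohesin and DNA methylation, 22 were tested, and 1 had a level of at least 25% in control replicates 2 and 3. None was called with 6 libraries, and 1 of 22 (4.55%, against 4.25% of all regions) was called lower without control replicate 1. It was the gene of at least 25%, Ctcfl, the testis paralogue of Ctcf. Ctcfl was at 36.7, 88.1 and 71.1% in the controls and 41.1, 44.4 and 35.6% in the cKO libraries, on 3 cytosines. Those with most reads were Uhrf2, the paralogue of Uhrf1, Smchd1, which silences protocadherin genes, and Rest, and all 3 were under 4.2% in every library.

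The calls among the members rest on few libraries. In the main test they need control replicate 1 to be left out. A plain binomial test, which takes no account of the spread between libraries, called 6 of 39 members lower with all 6 libraries, and 390 of all 11033 regions. The values that follow are without control replicate 1. Of the 8 members called then, 4 were called when cKO replicate 1 was left out too. With the X and Y chromosomes in the fit, 4 of the 8 were called (Pcdha4, Pcdhb2, Pcdhb17 and Pcdhga7). A test with each region's own dispersion called 0 and a plain binomial test 13, and at 20 reads in each library it was 4 of 22 members.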

How the data were processed

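Genomic DNA of whole cortex was digested with MspI, oxidised and bisulfite converted, and sequenced. Per the paper's methods the authors aligned reads with Genomatix software without mismatches, excluded thinly covered cytosines and used methylKit. The submitters' processing notes name GRCm38 and methylKit. For each cytosine and strand the authors deposited the coverage as a count of reads and the percent of C and of T, neither normalized between libraries nor pooled. The lowest coverage was 6 reads. Methylated reads were recovered from coverage and percent.

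Reads were summed over regions running from 1000 bp upstream to the end of the first exon of the transcript with the longest coding sequence (GENCODE annotation) with at least 3 cytosines covered in all libraries, and over 100 bp windows. Groups were compared by a quasi-binomial F test of a binomial model, with the dispersion moderated across features by the empirical Bayes method of limma (checked against limma 3.58.1 in R 4.3.3, prior from features of 5 to 95% pooled methylation, floor of 1), with numpy 2.4.6, scipy 1.17.1 and pandas 2.3.3 under Python 3.11.15; figures were made with matplotlib 3.10.9. The Benjamini-Hochberg adjustment ran over all autosomal features. Both thresholds, q under 0.01 and 25 points, follow the study. The test was tested on simulated data. Groups came from the genotype in the labels. Cell types were not checked, and the deletion could not be checked because 0 cytosines were listed in exon 4 of Uhrf1 (chromosome 17, 56310676 to 56310836) in any library.

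Members and lists were chosen with earlier results of these data known. Named in full were the C-type members, in each cluster the 2 highest, the 2 lowest and the 2 with most reads, called members (up to 6 by difference), the 2 smallest differences at a control level of 25% or more, and of the lists called genes (up to 3) and the 3 with most reads. Alternatives were coverage of 10 and 20 reads, 3 other tests, all nuclear chromosomes, other thresholds, the replicate number as a block, other region limits, other weights and omission of each library. The same alternatives without control replicate 1 were added after seeing the data, except the fit of all nuclear chromosomes. In the annotation 2 genes share the symbol Pcdha11, and neither was covered in all libraries.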

Additional observations from a re-analysis of the deposited data

How the results depend on the processing

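With 6 libraries the count of members called lower stayed at 0 in every planned setting but 2. It was 6 with the plain binomial test and 0 to 8 over the omissions of single libraries, with 8 only without control replicate 1. Member windows were 41 with the plain binomial test and 0 to 57 over the omissions. The list of non-clustered protocadherins and other cadherins had 3 and 0 to 4, and the list of regulators 0 to 1 over the omissions. No setting called a member higher. The 1 replicate block fit called 0 members and 0 member windows. Deviations of same-numbered libraries from their group means correlated at -0.396, 0.161 and -0.481 over 11033 regions. Control replicate 1 lay far from the other controls and weighs on every control deviation, so these values cannot show whether libraries were paired.

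Without control replicate 1, the 8 members called became 4 at a coverage of 20 reads, 13 with the plain binomial test, 0 with each region's own dispersion, 4 with all nuclear chromosomes in the fit, 16 at a difference of 10 points, 2 with at least 10 covered cytosines, and 3 to 8 when each other library was also left out, where a lone control was assumed to vary like the cKO libraries. The 57 windows became 19 at 20 reads, 0 with own dispersion, 10 with limma on the arcsine square root, and 21 to 50 over further omissions. The 4 related cadherins became 0 with own dispersion, 2 with all nuclear chromosomes and 2 with 10 cytosines. The 1 regulator became 0 at 20 reads, with own dispersion, with limma, with all nuclear chromosomes and with 10 cytosines, and 2 with the longest first exon. The cause of these changes was not tested, save that higher coverage and more cytosines leave fewer regions (22 and 24 members).

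Class means and the differences between classes kept their direction in all settings except the order within single libraries. The beta minus alpha difference had its lowest value at -4.16 points at 10 reads and at -16.2 points at 20 reads, where its mean was 1.29 points. At 20 reads alpha exceeded gamma by 18.6 points on average and 10.8 at least, and gamma exceeded C-type by 16 and 10.03. The relative level of alpha differed between groups by 0.0646 at 20 reads, and that of beta by -0.187 at 20 reads, 0.269 with pooled reads and -0.0506 with equal weight to each gene, against -0.0852 and 0.0855. Depth limits the beta genes most, with a median of 40.5 reads in the thinnest library of each tested gene.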

Other observations

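A total of 18 members had fewer than 3 cytosines covered in all 6 libraries, 6 alpha and 12 beta genes, and no gamma gene. For 7 of them no cytosine was listed in any library, and 4 were listed in some libraries. Pcdhb3, with 2 shared cytosines, was at 27.3, 66.7 and 76.6% in the 3 controls and at 5.88, 21.1 and 8.16% in the 3 cKO libraries, on 18 to 49 reads. Pcdhb20 was at 34.3, 80.4 and 84.8% and at 44.7, 44.6 and 52.6%, and Pcdhb12 at 13.2, 40.9 and 28.6% and at 21.7, 9.09 and 7.69%. In these 3 genes control replicate 1 lay below both other controls, and both other controls lay above every cKO library. Members without 3 shared cytosines had a median of 4 CCGG in their region and the others a median of 8.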
